A study of Gallus gallus with 2 samples.

Results

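Mitochondrial carriers and the genes of mitochondrial protein import were examined by RNA sequencing in chick limb bud kept with vehicle or with thalidomide. Members were taken by gene symbol: the carriers are the genes named SLC25A, the import genes those named TIMM or TOMM, and the small mitochondrial protein genes ROMO1 and HINT2 were added, having been picked with earlier results of these libraries known. Of 46 symbols that matched, 43 reached 1 FPKM in one library or the other, as did 10906 genes in all. They comprise 27 carriers, 14 import genes, and ROMO1 and HINT2. FPKM is a fragment count corrected for transcript length and library depth. Rows that share a symbol were summed.

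The tissue came from chick (Gallus gallus) embryos at Hamburger-Hamilton stage 22, day 4 of incubation. Pieces of limb bud were incubated at 37 °C for 4 h in 5% DMSO, the vehicle, or in 40 µg/ml of thalidomide, a drug that harms limb development and whose protein target is cereblon. The labels do not state a strain, how many embryos were pooled, whether fore and hind limb buds were mixed, or whether the thalidomide pieces also received DMSO. Total RNA was sequenced. Each treatment had 1 library, so no test, p-value or replicate spread is possible and no difference has a replicate check.

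The inner membrane of a mitochondrion is closed to charged metabolites, and the carriers let named substrates through it, such as ADP against ATP, phosphate, citrate, amino acids and cofactors. Nearly all mitochondrial proteins are made in the cytosol. They pass the outer membrane through the TOM complex, and then the inner membrane through the TIM23 complex, which takes proteins with a cleavable presequence, or the TIM22 complex, which inserts the carriers themselves. Small TIM proteins chaperone carriers across the space between the membranes. The mRNAs of both groups come from nuclear genes.

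Reading the deposited confidence limits as counting error gave 23361629 fragments with vehicle and 23280002 with thalidomide, and uncertain fragment assignment may make these numbers too low for some genes. The FPKM total over all annotated genes was 426632 with vehicle and 384280 with thalidomide, so summed levels are to be read beside this lower total. Mitochondrially encoded transcripts took 8.94% of the vehicle FPKM total and 11.3% of the thalidomide total. Of 10 limb mesenchyme markers 9 matched a gene, with a summed level of 723 FPKM with vehicle and 598 with thalidomide, and 7 of the 9 were lower as deposited. The most abundant, the homeobox gene PRRX1, was at 217 and 185 FPKM, while TBX5, at 22.5 and 26.4, and TBX4, at 16.4 and 18.5, were higher. Of markers of other cells above the minimum, those of cartilage were lower as deposited in 4 of 4 cases, of ectoderm in 4 of 5 and of endothelium in 3 of 4. Macrophage markers were lower in 3 of 4 cases, muscle markers in 2 of 4, and nerve and glia markers in 2 of 5. Among all genes 59.0% were lower as deposited. The part of these markers in the members' values was not tested. Of 8 red blood cell symbols searched, 6 matched a gene, 3 of them through an older symbol, and one of those 3, ALAS1, is the housekeeping relative of the erythroid gene. Their summed level was 239 FPKM with vehicle and 313 with thalidomide, and HBZ was listed at 0 in both. In bulk tissue fewer cells of a type and less RNA per cell cannot be told apart.

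Most members lay close to their vehicle level, and the import mRNAs were lower as a group while the carriers were divided. Ratios are log2 values of thalidomide over vehicle with 1 added to each FPKM, which understates the change of low genes. The ± after a ratio is 1 SD on the log2 scale, from deposited limits read as 2 SD on either side. It is thus narrower than those limits, and it covers counting and fragment assignment only. The import genes had a median log2 ratio of −0.25, or 1.19-fold lower with thalidomide, and this median was below 0 under each of 3 rescalings as well (ratios centred on the median of all genes, both libraries brought to the same FPKM total, and that total taken without mitochondrially encoded and haemoglobin genes). The carriers had a median of −0.042 as deposited, and it was above 0 under all 3 rescalings. All 10906 genes had a median of −0.048, with quartiles of −0.19 and 0.11. The median of all genes was likewise above 0 with the same total (0.082) and without mitochondrially encoded and haemoglobin genes in it (0.12). Of the 43 members, 32 had a ratio below 0, against 59.0% of all genes. ROMO1 and HINT2, picked with earlier results known, are in this and the following counts of members below 0. When both libraries were brought to the same FPKM total, which moved the median of all genes up by 0.13, 25 members were below 0, against 34.6% of all genes. With the total without mitochondrially encoded and haemoglobin genes, which moved it up by 0.16, 22 were below 0, against 28.4%.

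The deposited confidence intervals of both libraries were separate for 22 members on the lower side, against 26.9% of all genes, and for 4 on the higher side, against 15.5%. With the same total the numbers were 11 lower and 8 higher, against 10.4% and 32.1% of all genes. Without mitochondrial and haemoglobin genes in the total they were 8 lower and 12 higher, against 7.72% and 37.7%. Among all genes, the part separate on the lower side as deposited rose with abundance. It was 680 of 5570 genes at a mean of 1 to 10 FPKM and 950 of 3214 at 10 to 30. At 30 to 100 FPKM it was 876 of 1491, and at 100 or more 410 of 486. The share of 26.9% is thus below that of abundant genes. As deposited, the 22 were 11 carriers, 9 import genes, ROMO1 and HINT2. With the same total, the import genes still separate on the lower side were TIMM50, TIMM13 and TOMM40L. The carriers still so were SLC25A3, SLC25A5, SLC25A6, SLC25A15, SLC25A20 and SLC25A39, beside ROMO1 and HINT2. Intervals of single genes below are those as deposited unless another scale is named. The 4 were all carriers, among them SLC25A42, SLC25A29 and SLC25A28. At least 1.5-fold lower were 2 members, ROMO1 and HINT2, where 0.972% of all genes passed, and at least 1.5-fold higher was 1, SLC25A42, where 0.954% of all genes passed. ROMO1 and HINT2 lie among the 1401 genes with under 30 inferred fragments per FPKM. Of those genes 72 were at least 1.5-fold lower and 26 at least 1.5-fold higher, a larger part than among all genes. With the fold threshold set 25% above 1 in place of 50% above 1, 10 members were lower, against 8.71% of all genes, and 4 higher, against 6.14%. The 10 again include ROMO1 and HINT2, and the 4 include SLC25A42. With the same total, HINT2 no longer passed 1.5-fold, at −0.57, while ROMO1 and SLC25A42 did. These 3 genes had already been seen to differ when the members were chosen, so their number says nothing about the members as a whole.

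**Figure D1:**
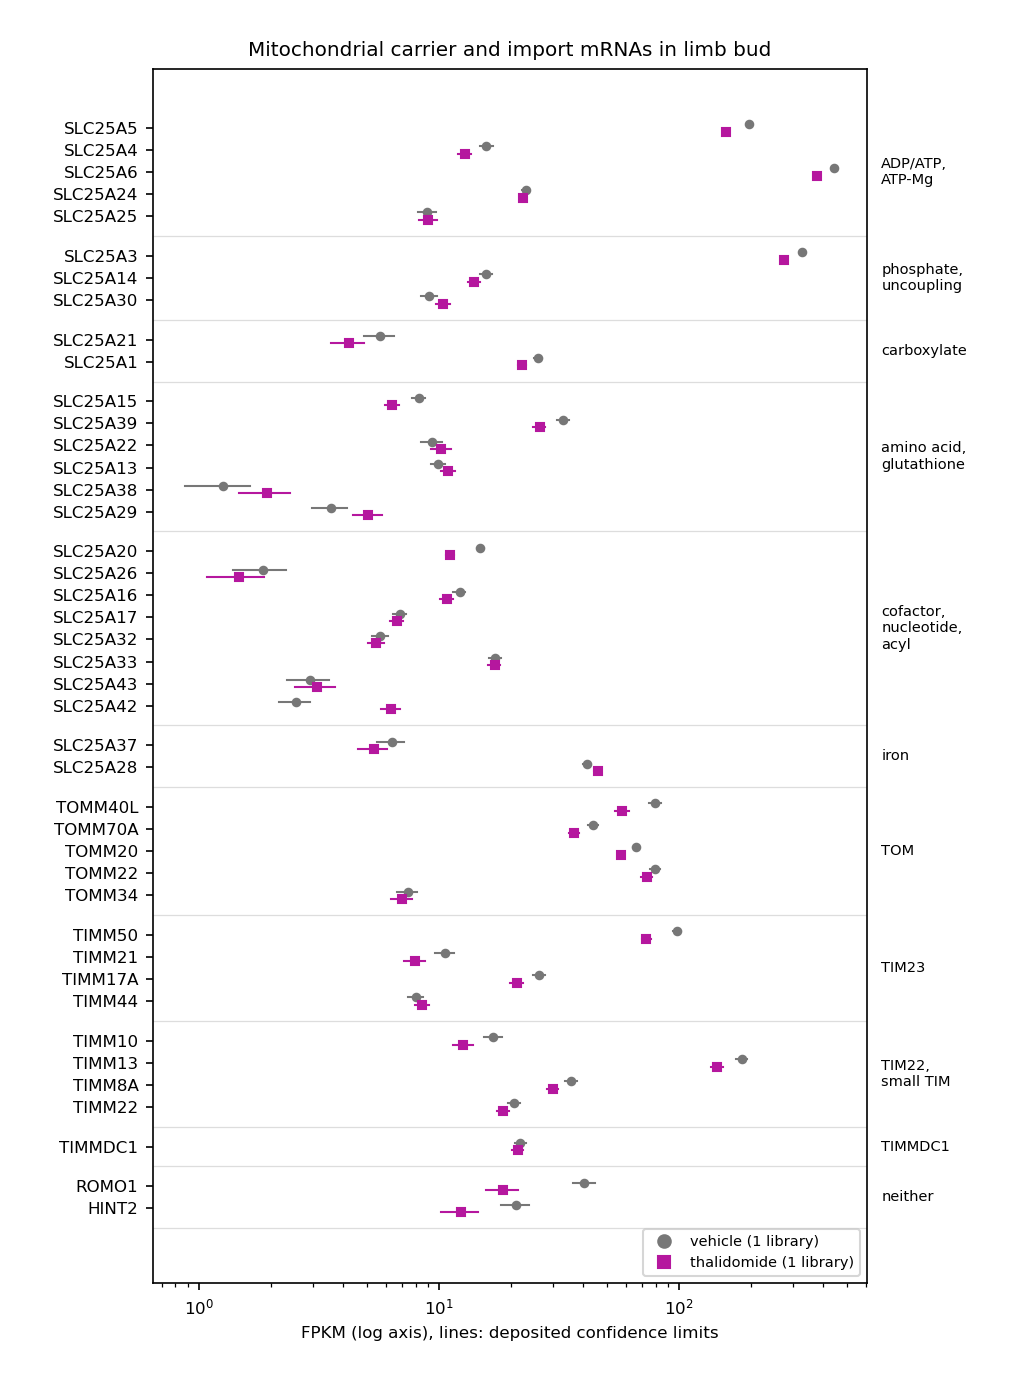
FPKM of 42 of the 43 members on a log axis, with 1 vehicle library (grey circles) and 1 thalidomide library (purple squares), grouped by role, and lines for the deposited confidence limits. SLC25A42 stands to the right with thalidomide, at 6.29 against 2.53 FPKM, and ROMO1 to the left, at 18.5 against 40.4 FPKM, while most other pairs lie close together.

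SLC25A42, which in human carries coenzyme A into the matrix in exchange for adenine nucleotides, had the highest ratio among the carriers. Its FPKM was 2.53 with vehicle (limits 2.15 to 2.91) and 6.29 with thalidomide (limits 5.72 to 6.87). The limits lie well apart, and the values rest on 181 and 484 inferred fragments. The log2 ratio was 1.05 ± 0.095. The gene lies on chromosome 28 from 3410986 to 3425610 (galGal4, the build in the submitters' processing notes), with no other annotated locus overlapping it. It had the 21st highest ratio of 10906 genes.

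The ADP/ATP carriers SLC25A6 and SLC25A5, which export ATP made in the matrix, and the phosphate carrier SLC25A3 were the most abundant members. SLC25A6 had 442 FPKM with vehicle and 377 with thalidomide (log2 ratio −0.23 ± 0.0087). SLC25A5 had 196 and 157 FPKM (−0.32 ± 0.025), the lowest ratio of this role. SLC25A4, the isoform typical of muscle in mammals, had 15.8 and 12.8 FPKM (−0.28 ± 0.061). All 3 had separate intervals, as did 26.9% of all genes on the lower side. At a mean of 100 FPKM or more, where SLC25A6 and SLC25A5 lie, 410 of 486 genes did, and the median ratio of all genes was −0.24. At 10 to 30 FPKM, where SLC25A4 lies, 950 of 3214 did. The proportions of the 3 ADP/ATP carriers were alike in both libraries. SLC25A6 made up 67.6% of their summed FPKM with vehicle and 69.0% with thalidomide. Reads may be divided between these close relatives, and a RefSeq gene table (assembly GRCg7b) gives SLC25A5 as an older name of SLC25A6. The calcium-regulated ATP-Mg/phosphate carriers did not have separate intervals: SLC25A24 had 23.02 and 22.4 FPKM (−0.039 ± 0.030) and SLC25A25 had 8.97 and 9.06 FPKM (0.012 ± 0.077).

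SLC25A3, which brings phosphate for ATP synthesis and also copper into the matrix, had 324 FPKM with vehicle and 275 with thalidomide (log2 ratio −0.24 ± 0.016). Together SLC25A3, SLC25A5 and SLC25A6 held 77.3% of all carrier FPKM with vehicle and 74.9% with thalidomide. The sum over the 27 carriers was therefore set by a few genes, and was 1245 FPKM with vehicle and 1079 with thalidomide. As a share of the library FPKM total, which was also lower with thalidomide, the carriers held 0.292% with vehicle and 0.281% with thalidomide. Of the relatives of uncoupling proteins, SLC25A14 had 15.7 and 14.02 FPKM (−0.16 ± 0.053) with separate intervals, and SLC25A30 had 9.13 and 10.4 FPKM (0.18 ± 0.067) with overlapping ones. Their ratios pointed to opposite sides as deposited, but SLC25A14 was above 0 (0.022) once the libraries were brought to the same total without mitochondrial and haemoglobin genes.

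Both carboxylate carriers were lower with thalidomide under each scaling. Among all genes 59.0% were below 0 as deposited and 34.6% with the same total. With that total taken without mitochondrial and haemoglobin genes, SLC25A1 was at −0.036 ± 0.036, no larger than its error. Intervals of both were separate as deposited, as for 26.9% of all genes on the lower side, but overlapped with the same total. SLC25A1 exports citrate, the source of cytosolic acetyl units for lipid synthesis. It had 25.96 FPKM with vehicle and 22.2 with thalidomide (log2 ratio −0.22 ± 0.036). SLC25A21, a carrier of oxoadipate in the breakdown of lysine and tryptophan, had 5.69 and 4.21 FPKM (−0.36 ± 0.13).

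Amino acid and glutathione carriers went both ways, 2 of 6 below 0, and this split was the same under each scaling. Among all genes 59.0% were below 0 as deposited and 34.6% with the same total. The ornithine carrier of the urea cycle, SLC25A15, had 8.25 FPKM with vehicle and 6.404 with thalidomide (log2 ratio −0.32 ± 0.057). SLC25A39, which brings glutathione into the matrix, had 33.03 and 26.3 FPKM (−0.32 ± 0.055) and was the most abundant of the 6. Intervals were separate for both, as for 26.9% of all genes on the lower side. On the other side, SLC25A29, a carrier of basic amino acids, had 3.56 and 5.09 FPKM (0.42 ± 0.13) with separate intervals. SLC25A38, the glycine carrier needed for haem synthesis, had 1.26 and 1.93 FPKM (0.37 ± 0.17). Its intervals overlapped, at about 44 and 70 inferred fragments. The glutamate carrier SLC25A22 (0.12 ± 0.092) and the aspartate/glutamate carrier SLC25A13 (0.13 ± 0.062) also had overlapping intervals.

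Cofactor, nucleotide and acyl carriers held both the highest and the lowest ratio of any carrier. The lowest was that of SLC25A20, which takes acylcarnitines into the matrix for fatty acid oxidation. It had 14.9 FPKM with vehicle and 11.1 with thalidomide, a log2 ratio of −0.39 ± 0.033 from 3691 and 3077 inferred fragments. The highest was that of SLC25A42, given above. SLC25A33, a pyrimidine nucleotide carrier and the most abundant of the 9, had 17.2 and 17.1 FPKM (−0.011 ± 0.055). SLC25A16 had 12.2 and 10.8 FPKM (−0.16 ± 0.055) with separate intervals. The remaining carriers of the role with overlapping intervals were SLC25A26 for S-adenosylmethionine (−0.20 ± 0.16), SLC25A17 of the peroxisome (−0.042 ± 0.054), SLC25A32 for folate and flavin (−0.040 ± 0.065) and SLC25A43 (0.066 ± 0.15).

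The mitoferrins, which bring iron into the matrix, differed in level and in side. SLC25A28, the form most tissues use, had 41.5 FPKM with vehicle and 45.9 with thalidomide (log2 ratio 0.14 ± 0.039), with separate intervals. SLC25A37, the form typical of red blood cell precursors in fish and mammals, had 6.36 and 5.36 FPKM (−0.21 ± 0.12), with overlapping intervals. Among haemoglobin mRNAs, HBAA (137 and 193 FPKM) and HBAD (39.1 and 58.5 FPKM) were higher with thalidomide with separate intervals, while HBG2 (19.8 and 20.7 FPKM) and HBE1 (0.758 and 1.23 FPKM) had overlapping ones. Their part in the values of SLC25A37, SLC25A38 and SLC25A28 was not tested. Below the minimum were SLC25A40, at 0.057 FPKM with vehicle and listed at 0 with thalidomide, SLC25A47, at 0.12 and 0.086 FPKM, and SLC25A48, at 0.42 and 0.54 FPKM.

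**Figure D2:**
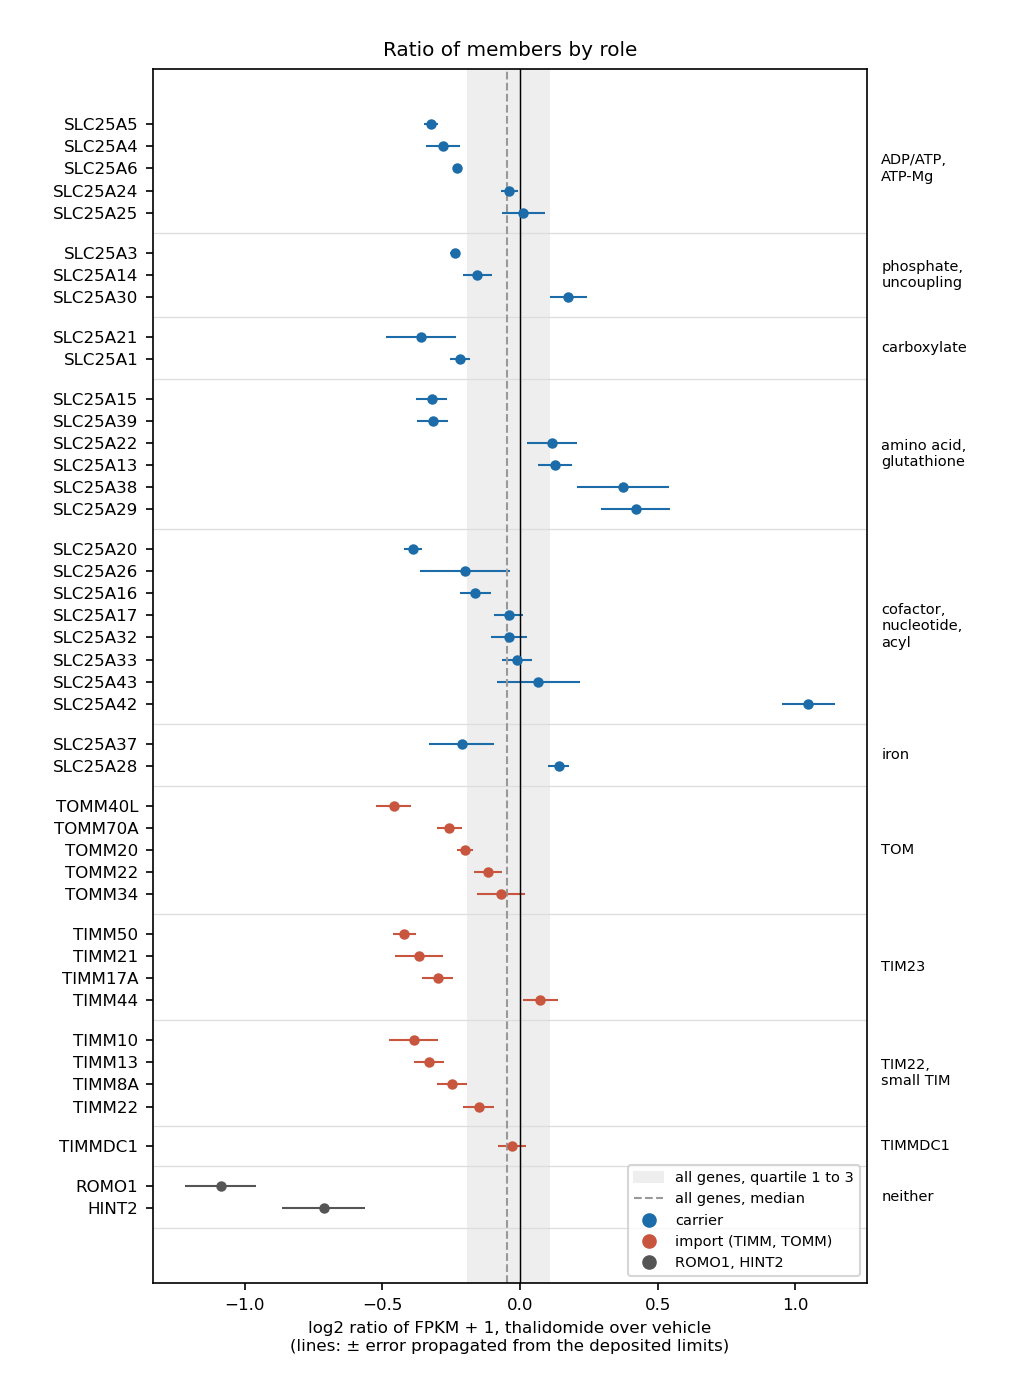
Log2 ratio of FPKM + 1, thalidomide over vehicle, for 42 of the 43 members by role, with lines for ± 1 SD propagated from the deposited limits, the quartile range of all 10906 genes in grey and their median dashed. As deposited, 13 of 14 import genes (red) lie below 0, against 59.0% of all genes, and TIMM44 lies above 0. After the libraries are brought to the same total 10 lie below 0, against 34.6%. The carriers (blue) spread from −0.39 to 1.05 as deposited.

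The TOM complex is the entry gate of the outer membrane. It is covered only in part, since no annotated gene bore the symbol TOMM40. TOMM40L, annotated on an unplaced scaffold like TIMM50 and encoding a relative of the channel protein TOMM40, had 79.9 FPKM with vehicle and 57.9 with thalidomide. Its log2 ratio of −0.46 ± 0.063 was the lowest of any TIMM or TOMM gene. The receptor gene TOMM70A, which in yeast and human binds carrier precursors and their chaperones, had 43.9 and 36.6 FPKM (−0.26 ± 0.046). The presequence receptor TOMM20 had 66.3 and 57.6 FPKM (−0.20 ± 0.030). These 3 had separate intervals as deposited, as did 26.9% of all genes on the lower side. At a mean of 30 to 100 FPKM, where these 3 lie, 876 of 1491 genes did. With the same total only the intervals of TOMM40L stayed separate, while TOMM70A was at −0.11 ± 0.046 and TOMM20 at −0.052 ± 0.030. The central receptor TOMM22 had 79.8 and 73.6 FPKM (−0.12 ± 0.051), the highest mean level of the group, and the cytosolic cochaperone TOMM34 had 7.43 and 7.04 FPKM (−0.069 ± 0.087). Intervals overlapped for both, and both were above 0 when the libraries were brought to the same total.

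In the TIM23 complex, 3 of 4 measured genes were lower under each scaling, with a median log2 ratio of −0.33 as deposited. No annotated gene bore the symbol TIMM23, so the complex is covered only in part. The shares of all genes below 0 were 59.0% as deposited and 34.6% with the same total. TIMM50, the receptor that takes presequences from TOM, had 98.4 FPKM with vehicle and 73.2 with thalidomide (−0.42 ± 0.042). TIMM21, which links TIM23 to TOM, had 10.6 and 7.997 FPKM (−0.37 ± 0.088). TIMM17A, a channel subunit, had 26.2 and 21.1 FPKM (−0.30 ± 0.056). All 3 had separate intervals as deposited, as did 26.9% of all genes on the lower side. At a mean of 30 to 100 FPKM, where TIMM50 lies, 876 of 1491 genes did. At 10 to 30 (TIMM17A) 950 of 3214 did, and at 1 to 10 (TIMM21) 680 of 5570. With the same total only the intervals of TIMM50 stayed separate, while TIMM21 was at −0.23 ± 0.088 and TIMM17A at −0.15 ± 0.056. RefSeq lists TIMM17A as an older name of TIMM17B, so which of these paralogs the row holds is unsettled. TIMM44, which anchors the heat shock protein that pulls precursors into the matrix, had 8.04 and 8.52 FPKM (0.074 ± 0.063), and its intervals overlapped.

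The measured genes of the carriers' own import route were lower in 4 of 4 cases as deposited, where 59.0% of all genes were. However, TIMM22 was at 0.030 with the total set without mitochondrial and haemoglobin genes. TIMM13, a small chaperone of the intermembrane space and the most abundant import gene, had 182 FPKM with vehicle and 145 with thalidomide (log2 ratio −0.33 ± 0.054). Its locus on chromosome 28, from 627972 to 628532, spans 561 bases. TIMM10, another small TIM, had 16.8 and 12.6 FPKM (−0.39 ± 0.088). TIMM8A, the partner of TIMM13, had 35.5 and 29.8 FPKM (−0.25 ± 0.055). Intervals were separate for these 3 small TIM genes as deposited, as for 26.9% of all genes on the lower side. At a mean of 100 FPKM or more, where TIMM13 lies, they were so for 410 of 486 genes. At 30 to 100 (TIMM8A) it was 876 of 1491, and at 10 to 30 (TIMM10) 950 of 3214. With the same total only the intervals of TIMM13 stayed separate, while TIMM10 was at −0.25 ± 0.088 and TIMM8A at −0.10 ± 0.055. TIMM22, the channel that inserts carriers into the inner membrane, had 20.6 and 18.5 FPKM (−0.15 ± 0.056), with overlapping intervals. TIMMDC1 carries the prefix but serves in the assembly of respiratory complex I. It had 21.8 and 21.4 FPKM (−0.031 ± 0.050), and without it the import median was −0.26.

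ROMO1 encodes a small inner membrane protein related to Mgr2, a TIM23 subunit of yeast, and is annotated at 2 loci on chromosome 20. At the first, from 1031413 to 1032864, it had 26.5 FPKM with vehicle (limits 22.5 to 30.5) and 11.3 with thalidomide (limits 8.67 to 13.9). At the second, from 1135479 to 1137453, it had 13.9 (limits 12.4 to 15.4) and 7.21 FPKM (limits 6.13 to 8.28). Each locus was lower with thalidomide with separate limits, at log2 ratios of −1.16 ± 0.19 and −0.86 ± 0.12. The inferred fragments were 173 and 75 at the first locus and 334 and 180 at the second. Summed, the gene had 40.4 and 18.5 FPKM (−1.09 ± 0.13), the 33rd lowest ratio of 10906 genes. RefSeq lists a single ROMO1 gene, next to NFS1 like the second locus, and that locus also overlaps the annotated locus of CPNE1, so how reads were divided between them is unsettled. The ratios of the TIM23 genes lay closer to 0, and −0.42 for TIMM50 was the lowest.

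HINT2 encodes a histidine triad hydrolase that lies in mitochondria in mammals. It had 20.97 FPKM with vehicle (limits 18.1 to 23.8) and 12.4 with thalidomide (limits 10.2 to 14.6). The limits are separate, at 213 and 128 inferred fragments, and the log2 ratio was −0.71 ± 0.15. The locus lies on chromosome Z from 8951334 to 8952362, beside TAF1C and SPAG8. RefSeq gives the gene between these neighbours the symbol HINT1, and uses HINT2 for another gene on Z whose older names include HINT1Z, so the identity of the files' HINT2 is not settled.

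**Figure D3:**
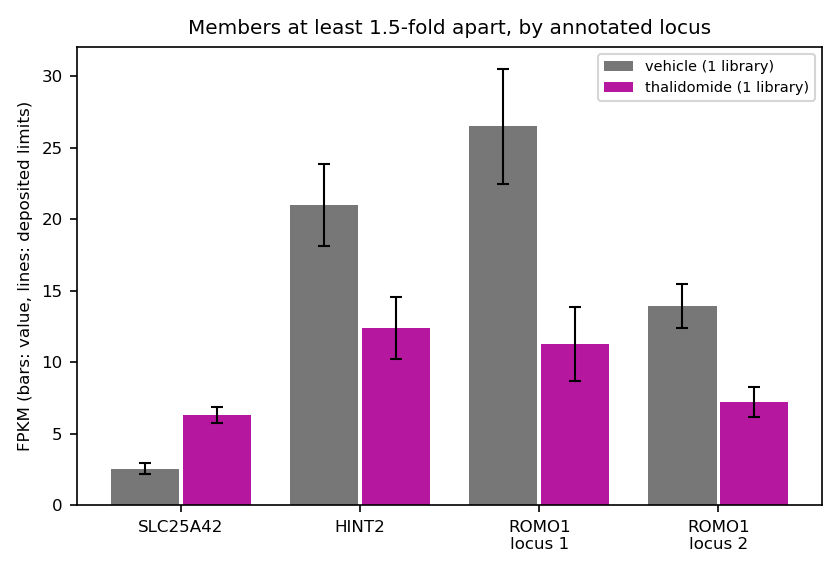
FPKM at the annotated loci of the 3 members at least 1.5-fold apart, with 1 vehicle library in grey, 1 thalidomide library in purple and lines for the deposited limits. Both ROMO1 loci are lower with thalidomide, at 11.3 against 26.5 and 7.21 against 13.9 FPKM.

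Carriers and import genes were then set against each other. The import median lay 0.21 below the carrier median on the log2 scale, and 0.19 below it in each of 2 rescalings to the same total. A rescaling moves all ratios by nearly the same amount, so it could hardly change this gap and is no check on it. Of the 14 import genes, 9 lay below the lower quartile of all genes, as did 11 of the 27 carriers. The groups overlapped: 6 carriers were at or below the import median and 2 import genes, TIMM44 and TIMMDC1, were above the carrier median.

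The groups also differed in abundance. The median of the mean FPKM was 28.2 for import genes and 9.81 for carriers, and in all genes the ratio went with abundance. Genes with a mean of 1 to 10 FPKM had a median log2 ratio of 0.0028, and those at 10 to 30, 30 to 100, and 100 or more had −0.053, −0.15 and −0.24. Of the 14 carriers under 10 FPKM, 6 were below 0 as deposited and 4 with the same total, against 49.6% and 28.4% of all genes there. Of the 13 carriers at or over 10 FPKM, 11 were below 0 as deposited and 9 with the same total, against 69.3% and 41.5%. With a mean of at least 10 FPKM required, the carrier median was −0.22, the import median −0.26, and the gap between them 0.039. That minimum left out 14 carriers and 3 import genes. The median single-gene errors of both groups combine to 0.066, which is not the error of a gap between medians.

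Within the bands from 10 FPKM up, members lay at or below the other genes in most cases. At 10 to 30 FPKM the 9 carriers had a median log2 ratio of −0.16 and the 4 import genes −0.22, against −0.053 for all genes there. At 30 to 100 FPKM the 6 import genes had −0.25 against −0.15 for all genes, while the only carrier, SLC25A28, had 0.14. At 100 FPKM or more the 3 carriers had −0.24, as all genes there, and TIMM13 had −0.33. In the lowest band, 1 to 10 FPKM, the 14 carriers had 0.039 and the 3 import genes −0.069, against 0.0028 for all genes.

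**Figure D4:**
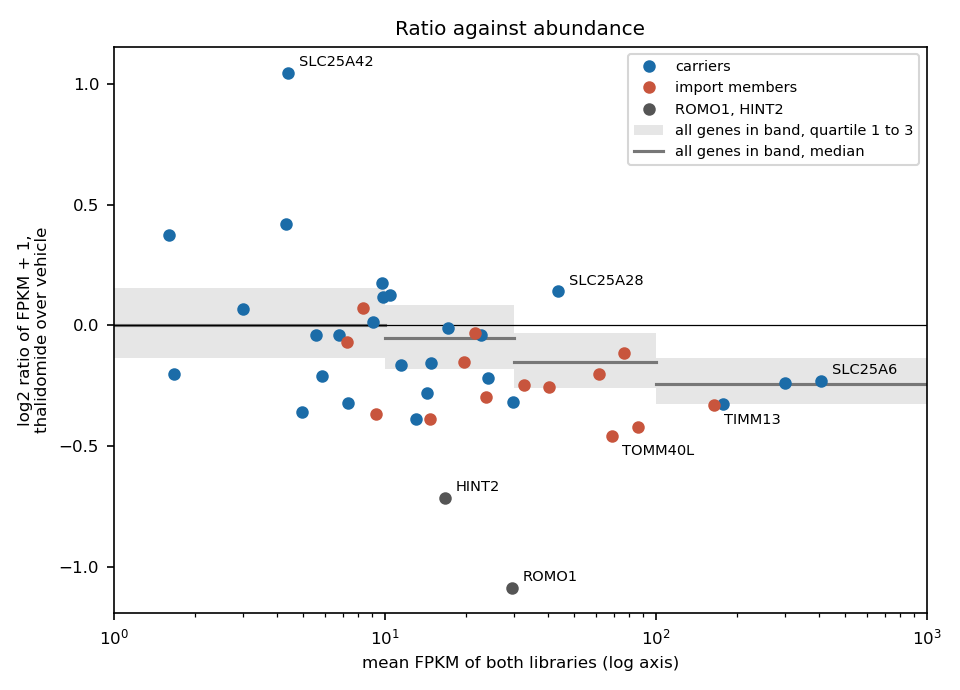
Log2 ratio of FPKM + 1, thalidomide over vehicle, against mean FPKM on a log axis for 42 of the 43 members, as carriers (blue), import genes (red) and ROMO1 and HINT2 (grey), with the median and quartile range of all genes in 4 bands of abundance. The median of all genes goes from 0.0028 in the lowest band to −0.24 in the highest, and SLC25A42, ROMO1 and HINT2 lie well outside the quartile range of their bands.

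Transcript length is not in the files, and inferred fragments per FPKM served as a stand-in. Its median was 44.3 for import genes, 67.3 for carriers and 84.9 for all genes, so the import mRNAs looked shorter. At under 30 fragments per FPKM all genes had a median log2 ratio of −0.16, and the 4 import genes there, TOMM40L, TIMM50, TIMM13 and TOMM22, had −0.38. ROMO1 and HINT2 lay in the same band, at 8.73 and 10.1. Of the 106 genes at least 1.5-fold lower, 72 were among the 1401 genes of this band. At 30 to 60, all genes had −0.10, the 10 carriers −0.21 and the 7 import genes −0.26. At 60 to 90 the carriers lay on the other side, with 0.13 over 9 carriers against −0.050 for all genes. At 90 or more, all genes had −0.0023 and the 8 carriers −0.19. Each of these carriers was below 0 as deposited, where 2613 of 5154 genes were. With the same total SLC25A17, SLC25A24 and SLC25A32 of them were above 0. Across the 43 members, which share both libraries, Spearman's rho of the ratio was −0.48 with mean FPKM and 0.39 with this stand-in. Across all genes it was −0.26 and 0.25. The 43 include ROMO1 and HINT2, picked with earlier results known, which hold the lowest ratios and low values of the stand-in. Within the groups, which leave these genes out, rho with mean FPKM was −0.46 across the 27 carriers and −0.43 across the 14 import genes. With the stand-in it was −0.12 across the carriers and 0.69 across the import genes. The part of abundance and length in the gap between the groups was not tested beyond these values.

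Overlap with other annotated loci affects 4 carriers, 6 import genes and the second ROMO1 locus. Strand specificity is not given in the sources used here, so reads of overlapping genes may be mixed. Without the overlapping genes, a choice made after seeing the data, the medians were −0.040 for 23 carriers and −0.24 for 8 import genes. Of carriers under 20000 bases apart, only SLC25A5 and SLC25A43 on chromosome 4 were both above the minimum. SLC25A43 lies 2659 bases from SLC25A5 and was at 0.066 ± 0.15, against −0.32 ± 0.025.

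Other genes of mitochondrial import and membranes were counted from lists drawn up with results of these libraries known. Of 18 import partners measured, 8 had separate intervals on the lower side and 3 on the higher, against 26.9% and 15.5% of all genes, and the median log2 ratio was −0.15 as deposited but −0.0042 with the same total. The lowest was IMMP1L, a peptidase subunit of the inner membrane, with 4.85 FPKM with vehicle and 2.92 with thalidomide (−0.58). The highest was GRPEL1, the nucleotide exchange factor of the import motor, with 17.5 and 21.3 FPKM (0.27). HSPA9, the heat shock protein that GRPEL1 serves, had 109 and 101 FPKM (−0.11).

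Other transporters of the mitochondrial membranes numbered 18, with 8 separate on the lower side and 1 on the higher, against the same 26.9% and 15.5%, and a median of −0.11 as deposited, against 0.030 with the same total. Their lowest was Mtch2, an outer membrane relative of the carriers, with 93.6 FPKM with vehicle and 69.8 with thalidomide (log2 ratio −0.42), and the highest was MTCH1 (0.36), whose intervals overlapped. Genes of cristae and inner membrane organization were below 0 in 11 of 12 cases as deposited and 7 of 12 with the same total, against 59.0% and 34.6% of all genes, with medians of −0.19 and −0.042. As deposited they ran from CHCHD3 of the cristae junction (−0.39) to IMMT, the mitofilin of the same junction (0.12). Regulators of mitochondrial biogenesis had a median of −0.10 over 7 genes as deposited, against 0.027 with the same total, with 3 separate on the lower side and 1 on the higher, where 26.9% and 15.5% of all genes were. TFB1M, a methyltransferase for mitochondrial ribosomal RNA, was lowest (−0.32), and the coactivator gene PPARGC1B was highest, with 2.16 and 3.35 FPKM (0.46).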

How the data were processed

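Each deposited file gives 1 library as gene-level FPKM values from the authors, with confidence limits on either side, per the file headers. Per the submitters' processing notes, the tools were bcl2fastq, STAR 2.4.2a, Cufflinks 2.2.1 and Cuffdiff, with build galGal4, but no roles are stated. For strand specificity and read length the sources used here give nothing. A count test was not run because FPKM values are not counts.

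Both tables were joined on gene ID (17108 loci). FPKM was summed over rows of one symbol, and 16737 genes remained. Genes at 1 FPKM or more in either library were kept. The upper limit minus the FPKM was read as 2 SD, which gave inferred fragments and the error (1 SD) of log2(FPKM + 1) ratios. File coordinates count from 0 and are printed from 1. With 1 library per treatment, values are descriptions. The ratio and its error were tested on simulated data with counting error only. That check could not cover fragment assignment, a difference in library scale or variation between replicates. The naming rule took SLC25A42, ROMO1, HINT2, members at least 1.5-fold apart, and each role's most abundant, highest and lowest member. The remaining members are given more briefly, and 1 carrier that enters the counts and medians is not reported here. Members, roles and lists were chosen with earlier results of these data known. Alternatives were other pseudocounts, filters, folds, scalings and group limits. Python 3.11.15, pandas 2.3.3 and numpy 2.4.6 were used.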

Additional observations from a re-analysis of the deposited data

How the results depend on the processing

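The carrier median of −0.042 was above 0 after centring on all genes (0.0062), with both libraries brought to the same FPKM total (0.088) and with that total taken without mitochondrial and haemoglobin genes (0.12). The median of all genes was 0.082 and 0.12 under these 2 totals, so the carrier median stayed close to it. The import median stayed below 0 under each alternative tried, at −0.11 with the same total and −0.067 with the total without those genes. A minimum of 5 FPKM gave a carrier median of −0.16 and a gap of −0.096 between import and carrier medians, and a mean of at least 10 FPKM gave −0.22 and −0.039. Both leave out low members, and the part of abundance beyond that was not tested. With the fold threshold set 25% above 1, 14 members were apart, 10 lower and 4 higher, against 8.71% and 6.14% of all genes. They include ROMO1, HINT2 and SLC25A42, already seen to differ when the members were chosen. Over the 4 settings that can move a single member's ratio (the pseudocount and 3 rescalings), 88 values moved by more than their error and 84 by less. As a rescaling moves all ratios by nearly the same amount, this sorts members mainly by the size of their error. None of the 3 at least 1.5-fold apart changed side. The median of all genes moved by at most 0.16, too little to change the side of such ratios, so this is no check on them. With the same total, SLC25A17, SLC25A24, SLC25A32, SLC25A33, TIMMDC1, TOMM22 and TOMM34 changed sign, and without mitochondrial and haemoglobin genes in it SLC25A14, SLC25A16 and TIMM22 did too. No paired analysis was possible because each treatment had 1 library. Leaving out a replicate was likewise not possible. Precision is limited by depth in SLC25A38 and SLC25A26, each with at most 70 inferred fragments in either library.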
